A study of Mus musculus with 10 samples.

Results

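The matrix metalloproteinases (Mmp), the ADAMTS proteases and the tissue inhibitors of metalloproteinases (Timp) were described in the mouse hippocampus 4 days after subarachnoid hemorrhage (SAH). Members were all gene names made of Mmp, Adamts or Timp followed by a number. This gave 46 of the 24391 gene names in the count tables, namely 23 Mmp, 19 Adamts and 4 Timp genes. The mice were males aged 10 to 14 weeks, of the strain written C56BL/6J in the study's methods, and no group received a drug or carried an allele by its label. In SAH mice (n = 4) a filament punctured an artery of the circle of Willis under anesthesia, and only mice whose cerebral blood flow fell sharply were kept by the study. Sham mice (n = 3) had the filament without the puncture, and Naive mice (n = 3) had no surgery. Both hippocampi of a mouse made 1 library of total RNA depleted of ribosomal RNA, and the Sham and Naive mice together are called control (n = 6). Mice are named by group and animal number, from SAH 1 to Naive 10.

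Mmp genes encode zinc-dependent proteases that cut collagens, laminins and many surface proteins. Some are secreted as inactive precursors and others are held in the cell membrane. ADAMTS proteases are secreted, carry thrombospondin repeats, and include the enzymes that cut the lecticans, the proteoglycans of the brain's extracellular matrix. Timp proteins bind the active site of Mmp proteases and block it. In brain injury the gelatinases Mmp2 and Mmp9 are known for cutting the basement membrane of vessels.

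The tables held between 19743388 and 27254655 counts of read pairs per mouse, of which the 46 members took 0.0990% to 0.112%. Markers of hippocampal excitatory neurons summed to 7790 to 8577 CPM (counts divided by the TMM-corrected size of each library) in the SAH group and 7371 to 8344 in control. SAH 3, SAH 4 and Sham 7 stood apart in 10 choroid plexus markers, with summed levels of 1242, 875 and 841 CPM against 46.0 to 220 CPM in the other 7 mice. The members' main results, the marker counts and the genes called in the pathway lists are given with and without them. SAH 3 was the highest or the lowest of the 10 mice for 18 of the 33 members tested, and for 51.0% of all genes tested.

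Promoter sequences are shown for the 6 members that passed the test in SAH against control, with or without the filter on low counts, and for 4 members of a cluster with almost no counts, since their start regions differ in base composition. Each is the last 100 bases before the start of the gene model in the count tables, on the plus strand of mm9, printed 5′ to 3′. Capitals mark matches on either strand to the AP-1 motif (TGANTCA), the GC box (GGGCGG) or the TATA box (TATAAA). None of these letter patterns contains another.
Timp3, chr10:85763057-85763156: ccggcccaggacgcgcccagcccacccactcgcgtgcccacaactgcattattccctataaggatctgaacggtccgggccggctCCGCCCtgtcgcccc
Timp1, chrX:20447192-20447291: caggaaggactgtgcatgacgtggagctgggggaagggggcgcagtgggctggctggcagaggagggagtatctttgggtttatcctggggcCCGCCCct
Mmp2, chr8:95351127-95351226: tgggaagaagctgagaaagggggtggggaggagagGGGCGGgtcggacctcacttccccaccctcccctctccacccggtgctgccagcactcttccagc
Mmp19, chr10:128227866-128227965: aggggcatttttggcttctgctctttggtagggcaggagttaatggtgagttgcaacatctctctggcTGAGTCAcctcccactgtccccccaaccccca
Mmp15, chr8:97876137-97876236: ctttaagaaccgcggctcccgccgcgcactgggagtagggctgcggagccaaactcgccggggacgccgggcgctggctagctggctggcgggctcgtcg
Adamts4, chr1:173180453-173180552: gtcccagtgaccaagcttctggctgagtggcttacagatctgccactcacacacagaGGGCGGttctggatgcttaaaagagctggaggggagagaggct
Mmp13, chr9:7272414-7272513: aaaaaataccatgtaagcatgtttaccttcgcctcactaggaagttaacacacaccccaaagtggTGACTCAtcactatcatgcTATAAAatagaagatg
Mmp3, chr9:7445722-7445821: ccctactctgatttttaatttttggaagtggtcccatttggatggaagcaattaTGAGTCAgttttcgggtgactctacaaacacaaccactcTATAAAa
Mmp10, chr9:7502242-7502341: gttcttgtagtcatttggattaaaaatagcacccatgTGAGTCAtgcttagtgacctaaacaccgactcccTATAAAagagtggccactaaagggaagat
Mmp7, chr9:7692011-7692110: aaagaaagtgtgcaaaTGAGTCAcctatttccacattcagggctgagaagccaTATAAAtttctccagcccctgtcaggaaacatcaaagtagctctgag

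Over 250 bases before the start, the AP-1 motif was found in 10 of the 46 member windows and in 6.2% of the 24181 windows of all gene names. Of those 10 windows, 8 belonged to the 10 Mmp genes of 1 cluster on chromosome 9 and the other two to Mmp19 and Mmp9. In Mmp19 the motif began 32 bases before the start. The GC box of Mmp15 began 147 bases before the start, outside the stretch printed. A GC box was in 22 member windows, all of them outside the cluster, and in 41.3% of all windows. A TATA box was in 7 of the 10 cluster windows, in 4 of the 36 other member windows and in 12.1% of all windows. The cyclic AMP element TGACGTCA (2.0% of all windows) and the CArG box (1.3%) were in 0 member windows, the NF-kappaB motif (7.8%) in 2, and the STAT motif TTCNNNGAA (6.9%) in 1. The GC content of the window was 40.4% in Mmp13, 37.6% in Mmp3, 37.2% in Mmp10 and 38.8% in Mmp7. It was 65.6% in Timp3, 54.4% in Timp1, 58.4% in Mmp2, 54.0% in Mmp19, 67.6% in Mmp15 and 51.6% in Adamts4, and the median over all windows was 55.2%. These matches are descriptions of letters.

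The members spanned a wide range in level per length (CPM per kilobase of exon). Timp2, which inhibits Mmp2 and also takes part in its activation, was the highest in control mice at 104 ± 12 CPM per kilobase (SD, n = 6). Mmp17, a membrane-type protease held by a lipid anchor, followed at 70.3 ± 2.9. Timp3, the inhibitor that binds to the matrix, had 22.3 ± 1.4, and Timp4 had 20.4 ± 1.1, so that these neighbours in the order overlapped within their spread. Mmp24, a membrane-type protease of neurons, had 13.7 ± 0.54, and Adamts4 had 10.0 ± 1.4. Mmp16 (6.79 ± 0.29) and Mmp14 (6.57 ± 0.43), both membrane-type proteases, did not differ beyond their spread.

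Inhibitors held a large share of the read counts of the family, which here were not divided by gene length. The 4 Timp genes took 45.1% to 52.1% of the member counts of a mouse, Mmp genes 32.0% to 37.8% and Adamts genes 14.5% to 17.3%. Timp2 alone took 30.0% to 37.4% and Mmp17 20.4% to 24.6%. Timp3 ranged from 9.10% to 17.6%. Mmp2 (0.741 ± 0.089 CPM per kilobase) and Mmp9 (0.468 ± 0.085), the gelatinases, were far down the order in control mice, at rank 19 and rank 24.

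**Figure D1:**
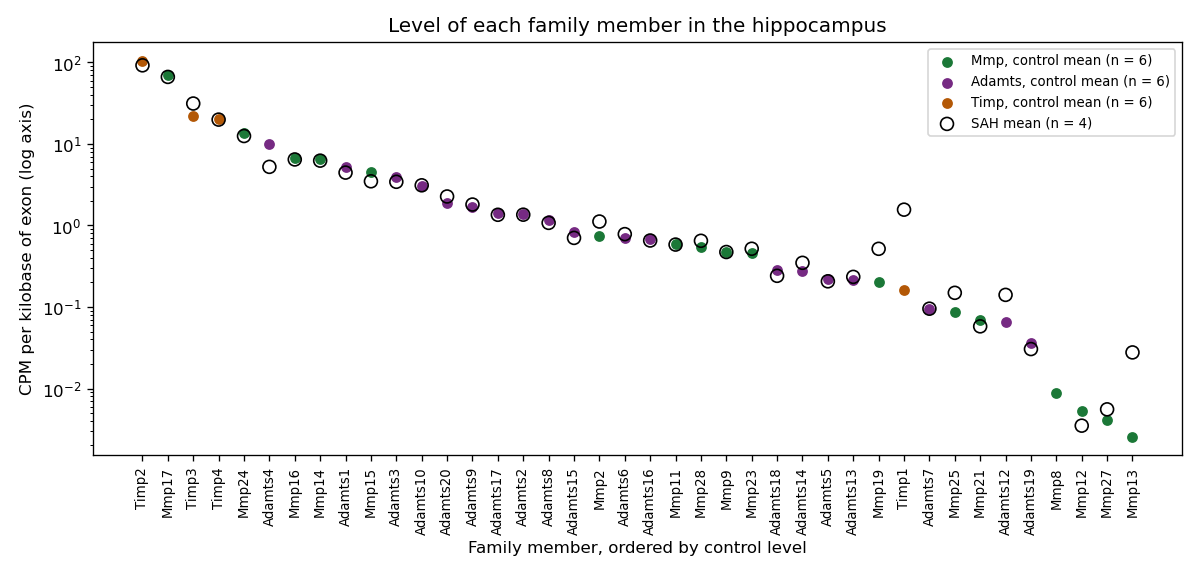
Level of 40 members in CPM per kilobase of exon on a log axis, ordered by the control mean. Filled points are means of 6 control mice and open circles means of 4 SAH mice. Timp2 leads at 104 and Mmp17 follows at 70.3, and the 6 members at 0 in every control mouse are not drawn.

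The low end of the order was a cluster of 10 Mmp genes on chromosome 9 (mm9, 7272514 to 7699416), in the order Mmp13, Mmp12, Mmp1b, Mmp3, Mmp1a, Mmp10, Mmp8, Mmp27, Mmp20 and Mmp7. It holds the collagenases, which cut fibrillar collagen, the stromelysins Mmp3 and Mmp10, the macrophage elastase Mmp12 and matrilysin, Mmp7. Over all 10 mice the 10 genes had 17 counts together, with 0 to 4 in a mouse. Mmp1b, Mmp1a, Mmp10, Mmp20 and Mmp7 had 0 counts in every mouse. A count of 0 allows up to 3 counts, or 0.154 CPM in the library with the fewest counts, for counting error only. Mmp13 had 3 counts in SAH 1 and 3 in SAH 3, with 0 in SAH 2 and SAH 4. In control mice it had 1 count, in Sham 5. Mmp8, the neutrophil collagenase, had 1 count in each of Sham 5, Sham 6 and Naive 9 and 0 in SAH mice. Mmp1a and Mmp1b are near copies of each other, and read pairs that aligned to several places were not counted, so their zeros are uncertain in that respect. The 5 genes at 0 were not detectable at this depth.

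In SAH against control, 33 members had enough counts for the test (12 Mmp, 18 Adamts and 3 Timp genes). Of these, 3 rose (Timp3, Mmp19 and Mmp2) and 2 fell (Adamts4 and Mmp15) at an adjusted p under 0.10 from edgeR's quasi-likelihood test. Among all 14993 genes tested, 3.13% rose and 1.54% fell. The other 28 members did not pass. The 13 members not tested were the 10 of the chromosome 9 cluster, Timp1, Mmp21 (1 to 6 counts per mouse) and Adamts19 (1 to 5 counts, and 15 in Naive 10). Of the 33, 16 had positive and 17 had negative log2 fold changes, with a median of −0.034 against −0.0024 over all genes tested. At an unadjusted p under 0.05 there were 5 higher and 4 lower, where 9.13% and 7.87% of all genes tested were. All 4 SAH mice lay above all 6 control mice in CPM for 3 members (2.83% of all genes tested), which were Timp3, Mmp19 and Mmp2. They lay below for Adamts4 alone (2.37% of all genes tested).

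**Figure D2:**
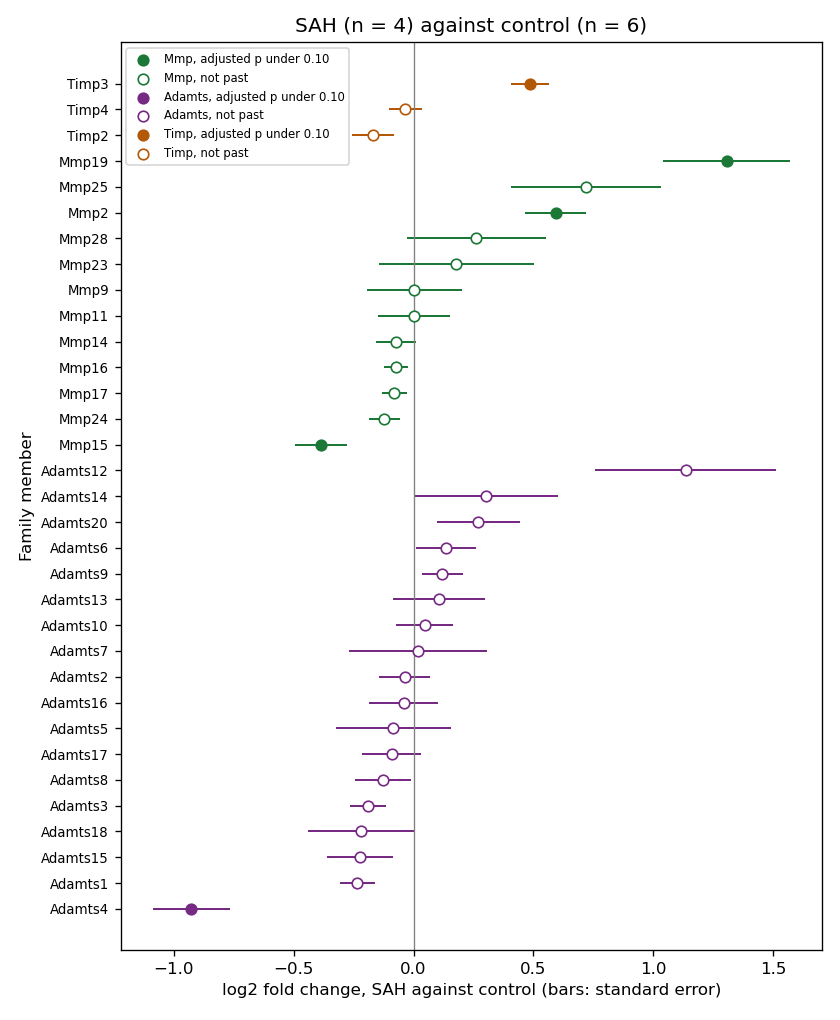
Log2 fold change of SAH (n = 4) against control (n = 6) for the 33 members tested, with its standard error as a bar, grouped by family. Filled points are past an adjusted p of 0.10: Timp3, Mmp19 and Mmp2 on the higher side, Adamts4 and Mmp15 on the lower side.

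Among the inhibitors, Timp3 rose. Timp3 also blocks several ADAMTS proteases and the sheddase Adam17. Its gene (mm9, chromosome 10, 85763157 to 85812250, plus strand) lies inside Syn3 on the other strand, with no shared exon. It had 2726, 3472, 3500 and 3766 counts in SAH 1 to SAH 4, against 2484, 2928 and 2882 in Sham mice and 2643, 2019 and 2312 in Naive mice. In CPM all SAH mice (128 to 177) were above all control mice (98.1 to 116), and SAH 3 was the highest.

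In SAH mice Timp3 averaged 146.7 ± 22.4 CPM (SD, n = 4), and in control mice 104.6 ± 6.51 CPM (SD, n = 6). The log2 fold change was 0.49 (SE 0.08, edgeR adjusted p = 0.00573). It was 0.35 with an adjusted p of 0.00105 when SAH 3, SAH 4 and Sham 7 were left out. In the 3-group fit Timp3 was also past the threshold against Sham mice (0.43, SE 0.09, adjusted p = 0.0882) and against Naive mice (0.55, SE 0.10, adjusted p = 0.0140). These comparisons share the SAH mice. The call against Sham was lost without SAH 4, without any single control mouse, and in a fit of only the SAH and Sham mice. The call was kept without SAH 1, SAH 2 or SAH 3. Its host gene Syn3, a synapsin, had a log2 fold change of 0.20 (SE 0.09, adjusted p = 0.251).

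Timp1, the inducible secreted inhibitor (mm9, chromosome X, 20447292 to 20451863, plus strand), had too few counts for the filter. It had 9, 6, 79 and 23 counts in SAH 1 to SAH 4, against 2, 5 and 6 in Sham mice and 2, 3 and 3 in Naive mice. SAH 3 was far above all others, and SAH 2 (0.221 CPM) lay below Sham 7 (0.241 CPM), so the groups overlapped. In the test without the filter 4 of 41 members rose and 2 fell, where 2.53% of the 19538 genes rose and 1.2% fell. Timp1 was the added member, with a log2 fold change of 3.17 (SE 0.70, edgeR adjusted p = 0.0251). A robust edgeR fit lost the call (3.17, SE 0.85, adjusted p = 0.110), and DESeq2 made it (3.26, adjusted p = 0.000386). In edgeR without the filter the call was kept in all 10 fits that left out 1 mouse each. Without SAH 3 the edgeR value was 1.83 (adjusted p = 0.0554). Without SAH 3, SAH 4 and Sham 7 it was 1.32 and the call was lost (adjusted p = 0.460). It lies inside Syn1, another synapsin gene on the other strand, which fell (−0.22, SE 0.05, adjusted p = 0.0422).

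Timp2 and Timp4 did not pass the test. Timp2 had 333.9 ± 38.8 CPM in SAH and 375.6 ± 43.3 in control mice (log2 fold change −0.17, SE 0.09, edgeR adjusted p = 0.358). Timp4, which lies inside Syn2, had 28.18 ± 3.09 and 28.82 ± 1.54 CPM (−0.03, SE 0.07, adjusted p = 0.830). The log2 fold changes of the 4 inhibitors ran from −0.17 for Timp2 to 3.17 for Timp1.

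Of the gelatinases, Mmp2 rose and Mmp9 did not pass. Mmp2, gelatinase A (mm9, chromosome 8, 95351227 to 95377319, plus strand), had 67, 91, 74 and 82 counts in SAH 1 to SAH 4, against 55, 50 and 65 in Sham mice and 59, 41 and 58 in Naive mice. Its SAH mice were close together at 3.24 to 3.74 CPM and did not overlap the control mice at 1.84 to 2.61 CPM. The log2 fold change was 0.59 (SE 0.13, edgeR adjusted p = 0.0239). The values against Sham (0.60, adjusted p = 0.158) and against Naive mice (0.58, adjusted p = 0.101) were alike in size and missed the threshold. The value was 0.60 without SAH 3, SAH 4 and Sham 7, with an adjusted p of 0.109.

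Mmp9, gelatinase B, had 26, 36, 40 and 35 counts in SAH mice, 37, 44 and 24 in Sham mice and 42, 29 and 41 in Naive mice. The groups overlapped in part, at 1.26 to 2.02 CPM in SAH mice and 0.965 to 1.74 CPM in control mice. The log2 fold change was 0.0026 with a standard error of 0.20 (edgeR adjusted p = 0.996). Mmp14, the membrane-type protease that activates the Mmp2 precursor, was measured at 331 to 483 counts per mouse and had a log2 fold change of −0.07 (SE 0.08, adjusted p = 0.691).

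Mmp19, a secreted protease of basement membrane proteins (mm9, chromosome 10, 128227966 to 128237880, plus strand), rose by the largest log2 amount among the members that passed with the filter. It had 37, 31, 55 and 36 counts in SAH 1 to SAH 4, against 15, 22 and 21 in Sham mice and 24, 10 and 12 in Naive mice. The SAH mice (1.14 to 2.78 CPM) lay above the control mice (0.509 to 0.903 CPM), with SAH 3 the highest. The log2 fold change was 1.31 (SE 0.26, edgeR adjusted p = 0.0182). It passed against Naive mice (1.42, adjusted p = 0.0629) but not against Sham mice (1.21, adjusted p = 0.184). The call against Naive mice was lost in a fit of only the SAH and Naive mice. Without SAH 3, SAH 4 and Sham 7 the value against the pooled control was 1.07 and the call was lost (adjusted p = 0.112). Its exons overlap those of Tmem198b on the other strand. Counting was by strand, and Tmem198b had a log2 fold change of 0.0058 (SE 0.08, adjusted p = 0.981).

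Among the 6 membrane-type proteases, Mmp15 fell and the others did not pass. Mmp15 (mm9, chromosome 8, 97876237 to 97898193, plus strand) had 355, 487, 229 and 325 counts in SAH 1 to SAH 4, against 487, 473 and 488 in Sham mice and 551, 392 and 454 in Naive mice. SAH 3 and SAH 4 were the lowest at 11.6 and 12.99 CPM, while SAH 2 (17.9 CPM) lay above Sham 6 (17.4 CPM). Its log2 fold change of −0.39 (SE 0.11, edgeR adjusted p = 0.0832) was past the threshold in 3 of the 10 fits that left out 1 mouse each. The call was lost without any 1 of SAH 3, SAH 4, Sham 5, Sham 7, Naive 8, Naive 9 or Naive 10. Without SAH 3, SAH 4 and Sham 7 together it was −0.15 (adjusted p = 0.550).

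The abundant membrane-type proteases had small log2 fold changes that did not pass. Mmp17 had a log2 fold change of −0.08 (SE 0.05), Mmp16 of −0.07 (SE 0.05) and Mmp24 of −0.12 (SE 0.06). The adjusted p-values of these genes were 0.452, 0.473 and 0.358. Exons of Mmp24 overlap BC029722 on the other strand, which had −0.11 (SE 0.05, adjusted p = 0.287). Mmp25, which neutrophils are known to carry, had between 7 and 15 counts per SAH mouse and between 3 and 11 per control mouse (0.72, SE 0.31, adjusted p = 0.260). The remaining Mmp genes tested, Mmp11, Mmp23 and Mmp28, had log2 fold changes of 0.0021, 0.18 and 0.26, and none passed.

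**Figure D3:**
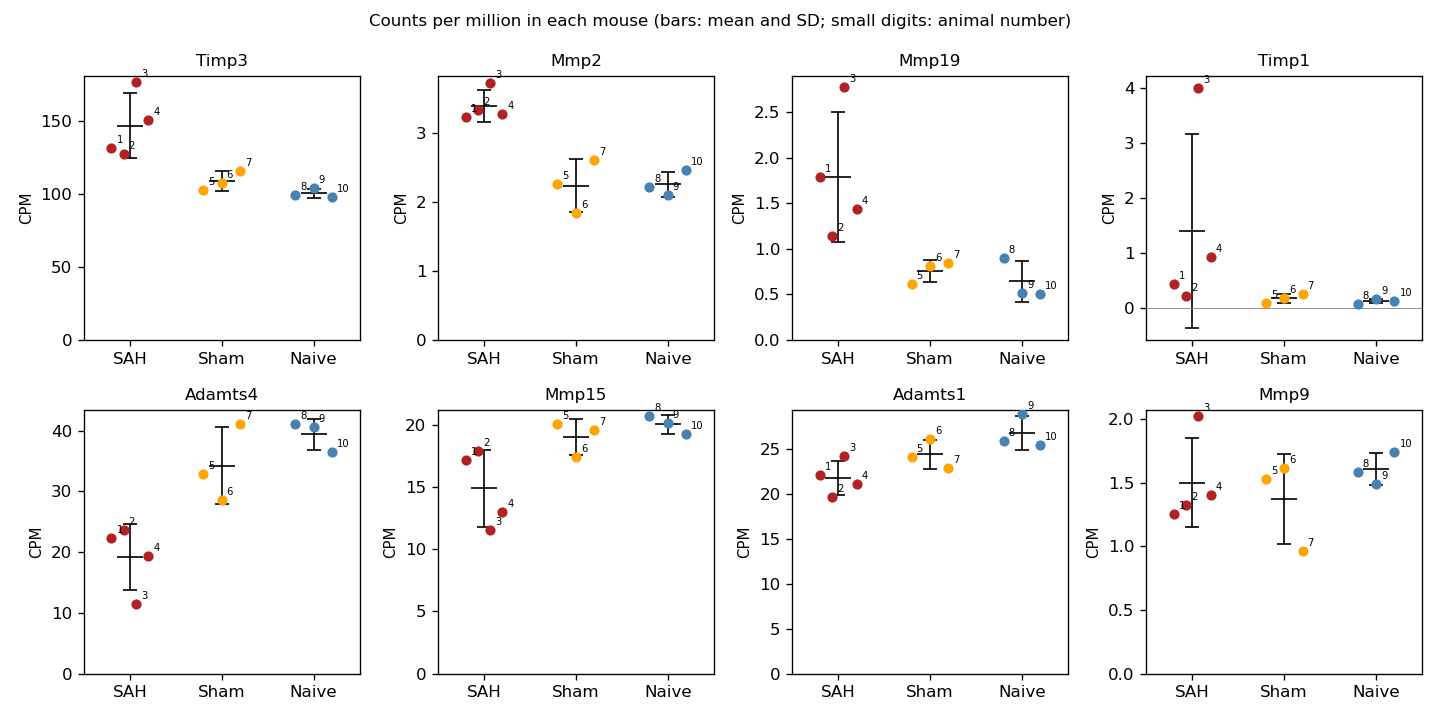
CPM of 8 members in each mouse, with the mean and SD of each group in black and the animal number beside each point. SAH mice lie above all control mice for Timp3, Mmp2 and Mmp19 and below them for Adamts4, and the Timp1 mean rests on SAH 3 at 3.99 CPM.

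Among the 7 ADAMTS proteases that cut lecticans, Adamts4 fell and 6 did not pass, with a median log2 fold change of −0.13 over the 7. Adamts4, an aggrecanase known in the brain from oligodendrocytes (mm9, chromosome 1, 173180553 to 173190053, plus strand), had 462, 644, 228 and 486 counts in SAH 1 to SAH 4. It had 798, 780 and 1023 counts in Sham mice and 1095, 789 and 859 in Naive mice. All SAH mice (11.5 to 23.7 CPM) lay below all control mice (28.7 to 41.2 CPM), and SAH 3 was the lowest.

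In SAH mice Adamts4 averaged 19.2 ± 5.45 CPM (SD, n = 4), and in control mice 36.8 ± 5.17 CPM (SD, n = 6). The log2 fold change was −0.93 (SE 0.16, edgeR adjusted p = 0.00803). It was past the threshold against Naive mice (−1.03, SE 0.19, adjusted p = 0.0174). Against Sham mice it missed it (−0.82, SE 0.19, adjusted p = 0.102) and passed without the filter (adjusted p = 0.0479). Without SAH 3, SAH 4 and Sham 7 it was −0.64 (adjusted p = 0.0106). In all 10 fits that left out 1 mouse each, Adamts4, Timp3, Mmp19 and Mmp2 stayed past the threshold of the comparison with the pooled control.

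The other lectican-cutting proteases had smaller values. Adamts1, the next aggrecanase, had 457, 534, 479 and 528 counts in SAH mice, 586, 712 and 570 in Sham mice and 688, 563 and 600 in Naive mice. Its log2 fold change of −0.24 (SE 0.07, edgeR adjusted p = 0.115) missed the threshold, and only SAH 3 (24.2 CPM) lay among the control mice (22.9 to 29.0 CPM). Against Naive mice it passed without the filter (adjusted p = 0.0981) and not with it (0.105). Against the pooled control it passed with DESeq2 (−0.24, adjusted p = 0.0637), and in edgeR without SAH 3 (−0.29, adjusted p = 0.0461), without Sham 7 (−0.26, adjusted p = 0.0866) and without SAH 3, SAH 4 and Sham 7 (−0.32, adjusted p = 0.0538). Adamts5 had 24 to 52 counts per mouse (−0.08, SE 0.24). Adamts8, Adamts9, Adamts15 and Adamts20 had log2 fold changes of −0.13, 0.12, −0.22 and 0.27.

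The 3 procollagen proteinases Adamts2, Adamts3 and Adamts14, which trim fibrillar procollagens, lay between −0.19 and 0.30 and none passed with all mice. Without SAH 2, Adamts3 passed against the pooled control (−0.27, SE 0.07, edgeR adjusted p = 0.0558) and against Naive mice. Adamts13, the plasma protease of von Willebrand factor, had 19 to 35 counts per mouse (0.11, SE 0.19, edgeR adjusted p = 0.806). Adamts7 and Adamts12 cut cartilage oligomeric matrix protein. Adamts12 had 29, 29, 8 and 16 counts in SAH mice, 4, 7 and 9 in Sham mice and 16, 11 and 11 in Naive mice. SAH 1 and SAH 2 were high and SAH 3 lay among the control mice, and its log2 fold change of 1.13 (SE 0.38) had an adjusted p of 0.139. It was 1.73 against Sham mice (adjusted p = 0.145) and 0.69 against Naive mice (adjusted p = 0.442). Against the pooled control it passed without SAH 3 (1.35, adjusted p = 0.0602), in the 3-group fit (1.21, adjusted p = 0.0953) and without SAH 3, SAH 4 and Sham 7 (1.58, adjusted p = 0.0473). Against Sham it passed with DESeq2 and without SAH 3. The 5 other ADAMTS genes tested, Adamts6, Adamts10, Adamts16, Adamts17 and Adamts18, lay between −0.22 and 0.13 and did not pass.

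The spread among mice also differed by gene. In control mice the coefficient of variation of a member ranged from 3.95% for Mmp24 to 42.9% for Adamts12, with a median of 12.1%. In SAH mice the median was 15.3%, and 27 of the 33 members had a larger coefficient in SAH, as did 68.6% of all genes tested.

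In the pairwise comparisons 34 members were tested. Against Sham mice 1 member was past the threshold, Timp3, where 0.72% of the 15134 genes were. Against Naive mice there were 3, Timp3 and Mmp19 higher and Adamts4 lower, where 2.99% of genes were. Without Naive 8 the only member past it was Timp3, and without Naive 9 or Naive 10 Mmp19 was lost. Both comparisons use the same SAH mice. Between Sham and Naive mice 0 members passed in edgeR, where 0.00661% of genes did, and 0 passed in DESeq2. At an unadjusted p under 0.05 there were 0 members and 2.02% of genes. The values of members between Sham and Naive mice ran from −1.04 for Adamts12 to 0.40 for Mmp25, leaving out Timp1, which passed the filter through its SAH counts.

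Markers of other cell types moved with SAH in the same libraries. In bulk tissue, fewer cells of a type and less RNA per cell cannot be told apart. All 8 oligodendrocyte markers fell (median log2 fold change −0.57), with a summed level of 4747 to 6060 CPM in SAH and 6951 to 9645 CPM in control mice, beside the lower Adamts4. Of 10 meningeal fibroblast markers 8 rose (median 1.06), and their sum was 126 to 250 CPM in SAH and 113 to 153 CPM in control. SAH 3, the mouse with the most Timp1, Timp3 and Mmp19, had the lowest fibroblast sum of the SAH mice and the highest choroid plexus sum of all mice (1242 CPM).

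Of 8 mural cell markers 4 rose, with sums of 185 to 250 CPM in SAH and 135 to 170 CPM in control mice. Of 8 endothelial markers 3 rose. Of 5 macrophage markers tested 4 rose. The sums over all 6 listed macrophage markers, with the untested Ccr2, were 17.2 to 22.3 CPM in SAH and 5.90 to 11.0 CPM in control. Neutrophil markers stayed near 0, at 0.515 to 1.31 CPM in SAH and 0.226 to 1.01 CPM in control, and none of them had enough counts for the test. All 10 choroid plexus markers had positive log2 fold changes (median 1.16), 3 of them at an unadjusted p under 0.05, and none passed. Their sums were 105 to 1242 CPM in SAH and 46.0 to 841 CPM in control. The part of these markers in the values of the members was not tested, other than by fits with the choroid plexus or the fibroblast score.

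When the choroid plexus score was entered as a covariate, 3 members were past the threshold, where 1.17% of all genes were against 4.68% without it. Timp3 (0.35, edgeR adjusted p = 0.0425) and Adamts4 (−0.86, adjusted p = 0.0512) were among them, and Adamts12 was the third. Mmp19 (1.07, adjusted p = 0.198), Mmp2 (0.49, adjusted p = 0.224) and Mmp15 (−0.30, adjusted p = 0.516) were not, nor was Timp1 in the fit without the filter (1.82, adjusted p = 0.493). When the meningeal fibroblast score was entered instead, 6 members passed, where 12.3% of all genes did. Timp3 had 0.67 (adjusted p = 0.00523), Mmp19 1.78 (0.0184), Mmp2 0.71 (0.0618), Adamts4 −1.24 (0.0225) and Mmp15 −0.65 (0.0379), and Adamts20 was the sixth. Adamts1 had −0.04 (adjusted p = 0.854) and Adamts12 had 0.64 (SE 0.68, adjusted p = 0.598). In the fit without the filter Timp1 had 5.17 (adjusted p = 0.000265). Without SAH 3, SAH 4 and Sham 7, 4 members passed, where 2.18% of all genes did, which were Timp3, Adamts4, Adamts1 and Adamts12. The SAH mice kept there, SAH 1 and SAH 2, had the highest fibroblast scores (1.44 and 1.30). SAH 3 and SAH 4, left out, had 0.225 and 0.990. In that fit 7 of 8 oligodendrocyte markers fell (median −0.43), and 9 of 10 fibroblast, 5 of 6 macrophage, 3 of 8 mural and 2 of 8 endothelial markers rose. Ccr2, untested with all mice, was among the 6 macrophage markers there, having passed the filter only through SAH 1 and SAH 2. It had 32 and 24 counts in them, against 1 to 6 in the control mice kept.

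**Figure D4:**
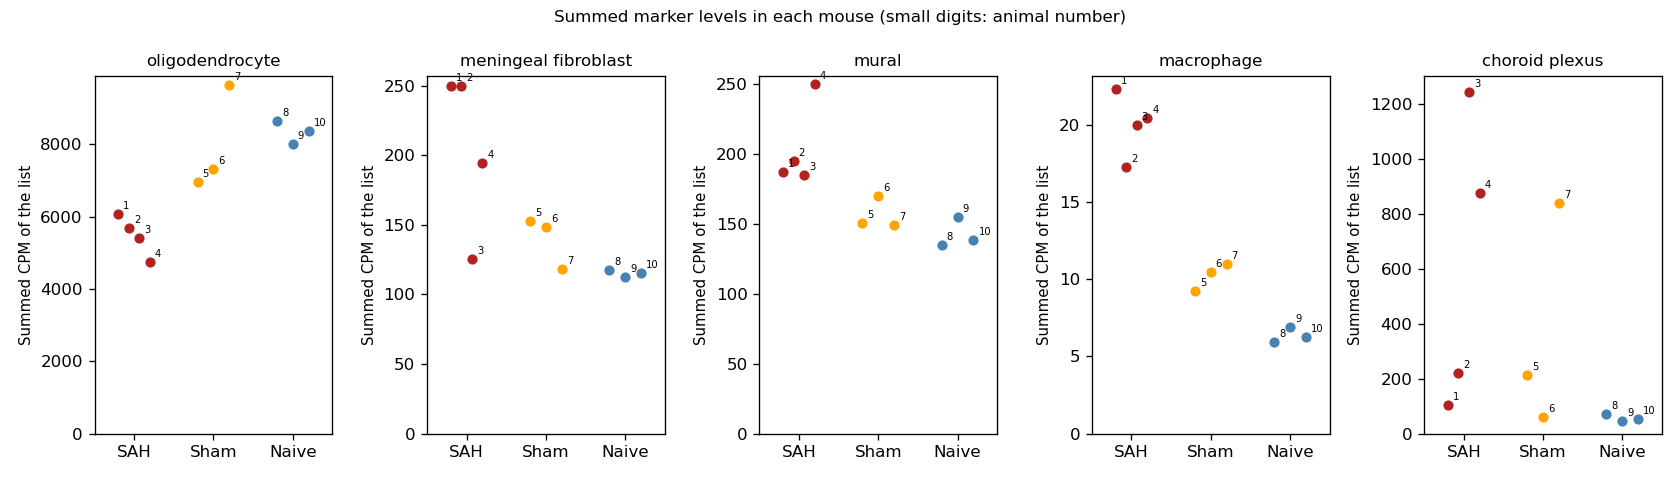
Summed CPM of 5 marker lists in each mouse, with the animal number beside each point. SAH mice lie below all control mice for oligodendrocyte markers and above them for mural and macrophage markers, while the choroid plexus sum is high in SAH 3, SAH 4 and Sham 7.

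**Figure D5:**
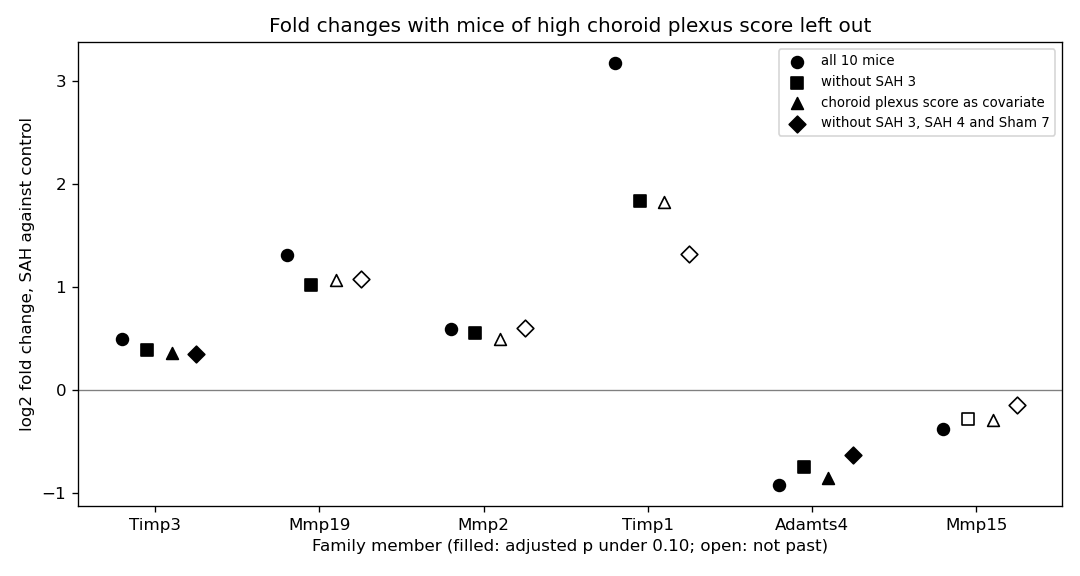
Log2 fold change of SAH against control for 6 members with all 10 mice, without SAH 3, with a choroid plexus covariate, and without SAH 3, SAH 4 and Sham 7. Filled symbols are past an adjusted p of 0.10, which holds in all 4 settings for Timp3 and Adamts4, and Timp1 is from fits without the filter.

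Other genes of the same pathways were counted by list. Of 9 inhibitors and clearance genes tested, 2 rose. A2m, a broad protease trap of plasma, had 12.1 ± 6.82 CPM in SAH and 4.23 ± 0.904 CPM in control (log2 fold change 1.504, SE 0.28, edgeR adjusted p = 0.0120). SAH 3 and SAH 4 were the highest, at 21.4 and 13.1 CPM against 7.93 and 6.18 in SAH 1 and SAH 2. The value was 0.85 without SAH 3, SAH 4 and Sham 7 (SE 0.13, adjusted p = 0.00351), and the call was lost with the choroid plexus covariate (0.92, adjusted p = 0.123). Reck, a membrane-anchored inhibitor of Mmp2, Mmp9 and Mmp14, had 13.3 ± 1.82 and 9.33 ± 0.939 CPM (0.50, SE 0.10, adjusted p = 0.0150), and without those 3 mice 0.34, where its call was lost (adjusted p = 0.194), as it was with the choroid plexus covariate (0.42, adjusted p = 0.182). With the fibroblast covariate A2m (2.23, adjusted p = 0.00346) and Reck (0.62, adjusted p = 0.0334) passed.

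None of the 11 activators and surface anchors passed, and 4 had an unadjusted p under 0.05, as did 17.0% of all genes tested. The smallest p-values were those of Klk8 (0.24, edgeR adjusted p = 0.137), Plaur (0.91, adjusted p = 0.238) and Pcsk6 (0.14, adjusted p = 0.257). Of 7 ADAMTS-like genes, which lack the protease domain, 1 rose, Adamtsl3 (0.74, SE 0.19, adjusted p = 0.0643), whose call was also lost without those mice (0.87, adjusted p = 0.116). It was lost too without any 1 of SAH 1, SAH 4, Sham 5, Sham 6, Naive 8 or Naive 9 (0.54 to 0.74), and with the choroid plexus (0.71, adjusted p = 0.312) or the fibroblast covariate (0.49, adjusted p = 0.375). The next smallest p-values were those of Adamtsl2 (−0.21, adjusted p = 0.403) and Thsd4 (0.12, adjusted p = 0.405). None of the 8 ADAM sheddases passed. Adam19 had −0.39 (adjusted p = 0.154), Adam12 −0.18 (adjusted p = 0.287) and Adam17, the sheddase of tumour necrosis factor, −0.11 (adjusted p = 0.548). Of 11 lecticans and their partners 1 rose, Thbs2 (0.43, SE 0.12, adjusted p = 0.0718), at 0.62 without those mice (adjusted p = 0.0163), at 0.44 with the choroid plexus covariate (adjusted p = 0.312) and at −0.02 with the fibroblast covariate (adjusted p = 0.957). Its call was lost without any 1 of SAH 1, SAH 2, SAH 4, Sham 5, Naive 8, Naive 9 or Naive 10 (0.36 to 0.45). Tnc, a matrix glycoprotein, had −0.39 (SE 0.15, adjusted p = 0.216), and Hapln1, which links lecticans to hyaluronan, had −0.22 (SE 0.09, adjusted p = 0.261). The lectican Acan, a substrate of Adamts4, had 0.28 (SE 0.13, adjusted p = 0.270).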

How the data were processed

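The authors aligned read pairs to mm9 with STAR and counted them by strand over exons with featureCounts 1.6.2. The deposited values are raw counts per gene name. No normalization had been applied to them. From these counts edgeR 4.0.16 in R 4.3.3 was run with TMM, the filterByExpr filter (minimum count 10, minimum total 15), the quasi-likelihood test and p-values adjusted by Benjamini-Hochberg over all genes, with a threshold of 0.10. The standard error is the size of the log2 fold change divided by the square root of F. The script was tested on simulated data. SAH was compared with Sham and Naive pooled, and the pairwise comparisons came from a 3-group fit.

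Members and lists were chosen with earlier results of these data known. The counts in every mouse were given for members past the threshold in any comparison, with or without the filter, or not overlapping in CPM. Mmp9 and Adamts12 were added after their values were seen. Of each pathway list, the 3 genes of smallest p were named, except 1 gene that is not reported here. Acan was added after its value was seen.

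Gene models matched the mm9 reference in 94.5% of 652 exons of members. The smallest chi-square per degree of freedom between 2 libraries was 3.62, so no library was a duplicate. Each library is 1 mouse. Alternatives were DESeq2 1.42.0, its size factors, library size alone, other filters, a stricter threshold, a robust fit, a 3-group fit, only the groups compared, marker scores as covariates and each mouse left out. Leaving out SAH 3, SAH 4 and Sham 7 together was chosen after seeing the data. Depth limits members with few counts. Protein sequences were not used here.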

Additional observations from a re-analysis of the deposited data

Results flagged for a closer look

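In 4 of 68 groups examined (34 members in the 4 SAH mice and in the 6 control mice) 1 mouse lay far from the others by Dixon's test, and chance flags about 1 in 20 groups. Adamts14 had 3.23 CPM in SAH 3, against 1.28 to 1.36 in the other SAH mice. Adamts17 had 10.8 CPM in SAH 3, against 7.10 to 7.50 in the others. Adamts10 had 11.3 CPM in SAH 1, against 12.99 to 13.3 in the other SAH mice. Mmp9 had 0.965 CPM in Sham 7, against 1.49 to 1.74 in the other control mice.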

How the results depend on the processing

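In SAH against control 5 members passed, and 4 to 7 did in every other setting run, except 3 with a choroid plexus covariate (Adamts4, Timp3 and Adamts12). The share of all genes called ran from 1.17% to 12.3% over these settings (4.68% with all mice, 6.42% with DESeq2, 2.05% to 7.25% with 1 mouse left out). Timp3, Mmp19, Mmp2, Timp1, Adamts4, Mmp15, Adamts1 and Adamts12 had the same sign in every setting. Of the 33 members tested 15 changed sign in some setting, of which none passed in the main comparison (largest size there 0.30) and Adamts20 passed with the fibroblast covariate. Against Sham the count of 1 (0.72% of all genes) was 5 with DESeq2 (1.91%), 2 without the filter (0.932%) and 0 in a fit of the 2 groups only (0.0797%), and 0 to 3 with 1 mouse left out (0.0393% to 1.42%). Against Naive the count of 3 (2.99% of all genes) was 6 with DESeq2 (4.56%) and 5 without the filter (2.65%). It was 2 in a fit of the 2 groups only (1.89%, Adamts4 and Timp3). With 1 mouse left out it was 1 to 6 (0.714% to 4.53% of all genes, 1 member without Naive 8, 6 without SAH 2). Timp1 missed the threshold in a robust edgeR fit (adjusted p = 0.110) and passed with DESeq2 (3.26, adjusted p = 0.000386). The causes were not tested. With library size alone or the 3-group fit Mmp15 did not pass. With 4, 3 and 3 mice, members with under 100 counts over all mice (13 of 46) could show only large differences. No paired analysis was possible because the animal numbers are not shared between groups.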
